A study of Mus musculus with 16 samples.

Results

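The conjugating detoxification enzymes are the glucuronosyltransferases, the glutathione transferases and the sulfotransferases, which were followed here in colonic epithelial cells of mice given dextran sulfate sodium (DSS) or left untreated. They were taken by symbol: a gene was a member when it had a probe set of its own and a symbol in the Ugt1 to Ugt3, Gst, Mgst or Sult families. Of 19938 genes measured, 48 were members, namely 10 glucuronosyltransferases, 22 glutathione transferases and 16 sulfotransferases. No gene of the Ugt1 family was among them, and 12 probe sets that named several genes, 1 or more of them with such a symbol, were not used here.

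RNA pools of 3 C57BL/6 mice aged 70 days were hybridised to 16 whole-transcript arrays, 2 pools for each of 8 groups. Mice were given 2% DSS in the drinking water for 8 days or none. Each of these treatments was applied to 4 kinds of offspring, which differed in secretory IgA (SIgA). Passive SIgA is the antibody received in the mother's milk, and active SIgA is the antibody carried into the gut by the offspring's own polymeric immunoglobulin receptor, Pigr. Mice with neither were Pigr-/- offspring of Pigr-/- dams, and mice with active SIgA only were Pigr+/- offspring of Pigr-/- dams. Mice with passive SIgA only were Pigr-/- offspring of Pigr+/- dams, and mice with both were Pigr+/- offspring of Pigr+/- dams. Every animal thus carried at least 1 null Pigr allele, and no Pigr+/+ mice entered the groups. Passive SIgA went with the genotype of the dam, so that it and other effects of the dam or litter cannot be told apart.

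Conjugating enzymes attach a bulky, usually charged group to a lipophilic or reactive molecule so that it can be exported. Glucuronosyltransferases sit in the endoplasmic reticulum and use UDP-glucuronic acid, glutathione transferases join glutathione to electrophiles, and sulfotransferases transfer sulfate from the donor PAPS. In the colon, surface colonocytes meet bacterial metabolites, dietary compounds and bile acids, and these enzymes belong to the chemical barrier of the mucosa. Genes of all 3 classes are known targets of xenobiotic sensors such as the aryl hydrocarbon receptor Ahr and the oxidative stress factor Nfe2l2 (Nrf2).

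Levels are deposited log2 intensities, which can be compared between arrays for 1 gene but not between genes. Array medians lay at 6.678 to 6.825. Precision is limited by the number of arrays: the median standard error was 0.0752 log2 for an average DSS effect across the 4 SIgA groups and 0.15 log2 for one within a single group. Changes are log2 differences ± standard error, and calls were made where limma's moderated test gave an adjusted p below 0.05 over all 19938 genes. What the p-values measure is spread between pools, not between single mice. Both arrays of the untreated group with both SIgA sources stood apart from the rest: the mean of 1238 olfactory receptor, vomeronasal receptor and keratin-associated genes was 5.26 and 5.42 log2 there, and 4.87 on replicate 1 of the untreated group with active SIgA only, against 4.45 to 4.71 on the other 13. These 3 arrays also lay at -35.2 to -32.2 on the first principal component, and the others at -5.5 to 27.4, so that results are given with and without them where they matter. The Pigr transcript was lower where the offspring were Pigr-/-, at -0.96 ± 0.07 after DSS and -0.74 ± 0.07 without DSS (limma adjusted p = 0.000147 and 0.000286). The 10 markers of colonic epithelium, such as Epcam and Krt8, had mean levels of 12.33 to 12.46 log2 on DSS arrays and 12.36 to 12.46 on untreated arrays, and 1 of them, Krt18, fell after DSS (-0.20 ± 0.06, limma adjusted p = 0.0444).

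Averaged over the 4 SIgA groups, 12 of the 48 members fell in DSS-treated epithelium and 2 rose, and 6 of the 12 were glutathione transferases of the mu class. Without the 3 arrays that stood apart, 7 members fell, 2 of them of the mu class. With all arrays 29.2% of members were called, beside a background of 13.1% of all genes called. Of all genes, 6.4% were called as higher and 6.73% as lower. By class, 3 of 10 glucuronosyltransferases, 7 of 22 glutathione transferases and 2 of 16 sulfotransferases fell, and the 2 that rose, Gstp3 and Gstk1, were glutathione transferases. The share called among sulfotransferases, 12.5%, was near the background. Among the 6 sulfotransferases with a mean level above 6.04 log2, 2 were called (33.3%), beside 17.2% of all genes above that level. The median difference was -0.19 log2 for glucuronosyltransferases, -0.11 for glutathione transferases and -0.08 for sulfotransferases, beside -0.004 over all genes. The difference was negative for 38 of the 48. Without the 3 arrays the medians were -0.063, -0.053 and -0.030, beside 0.018 over all genes, and 31 of the 48 differences were negative. No member among the 16 dimmest, those under a mean level of 6.04 log2, was called. With arrays centred on their medians, 874 genes were higher and 1637 lower, against 1276 and 1342 as deposited, and 1 member was higher and 14 lower. Among the 13956 genes above 6.04 log2, 17.2% were called in a fit of their own, and 7.37% of the 13956 were called as lower. In that fit 14 of the 32 members left were called (43.75%), 12 of them as lower. In each of the 14 members called, the sign of the difference was the same in all 4 SIgA groups, as it was for 2140 of the 2618 genes called overall. Since RNA came from whole epithelial isolates, fewer cells of a type and less RNA per cell cannot be told apart.

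**Figure D1:**
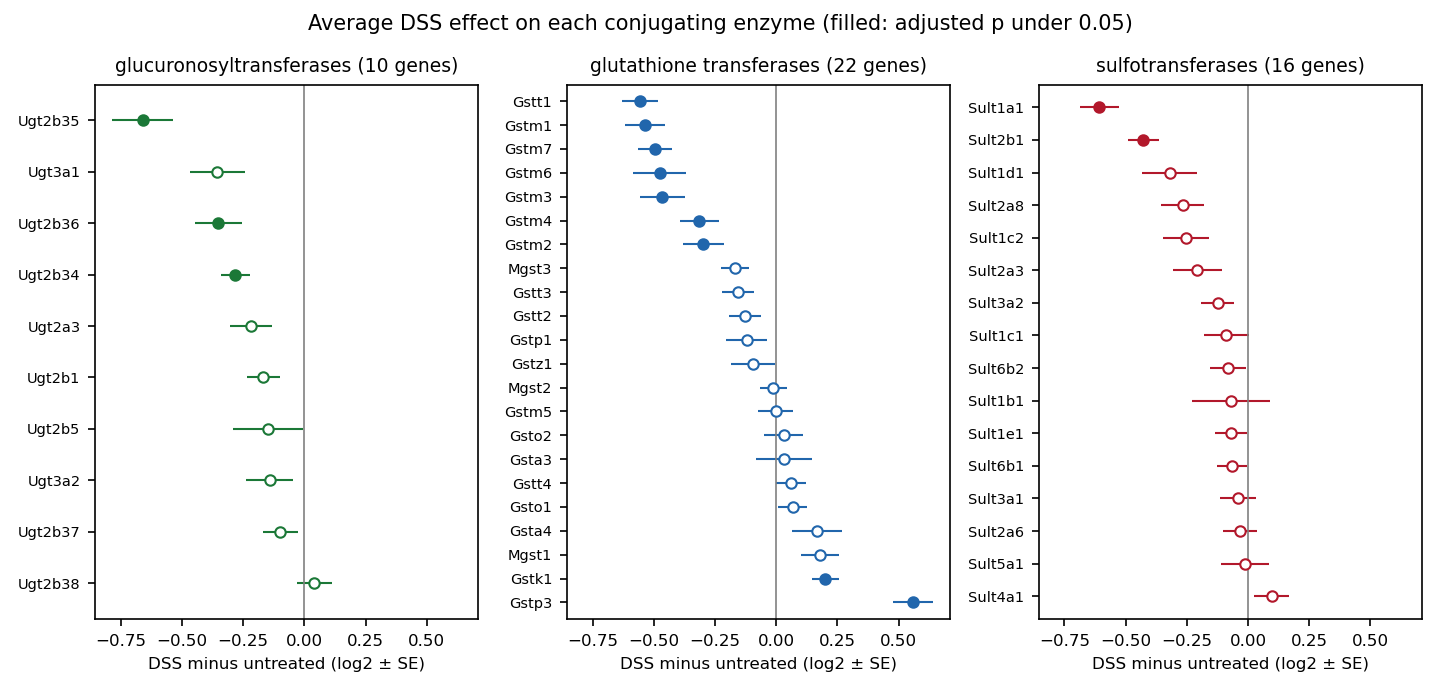
The plot gives the DSS effect on each of the 48 members in log2 units, DSS minus untreated, averaged over the 4 SIgA groups, with bars of 1 standard error. Filled points are the 14 members with a limma adjusted p under 0.05, 12 of them left of zero.

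The call on 10 of the 14 members held when any 1 of the 16 arrays was left out. Without the untreated group with both SIgA sources, 8 members fell and 2 rose, beside a background of 6.07%, and all 10 were among the 14. Gstm2, Gstm4, Gstm6 and Ugt2b36 then had adjusted p of 0.134, 0.0533, 0.0592 and 0.12, at differences of -0.29, -0.33, -0.46 and -0.34. Without that group and the third array that stood apart, 7 fell and 1 rose, beside 5.55%, and Gstm3 and Gstk1 were no longer called (adjusted p = 0.0578 and 0.0696), with Gstm3 at -0.41. Markers of other cells moved with the treatment. Of 14 neutrophil markers 11 rose and none fell (mean level 6.76 to 7.36 log2 on DSS arrays, 6.00 to 6.36 on untreated arrays), and 9 of 16 markers of monocytes and macrophages rose, with none lower (6.37 to 6.63 on DSS arrays, 5.73 to 6.12 on untreated arrays). Of 13 absorptive colonocyte markers, which include the water channel gene Aqp8, 8 fell and none rose (11.68 to 11.9954 on DSS arrays, 11.9960 to 12.28 on untreated arrays), and of 8 crypt stem markers 5 fell. The part of these shifts in the enzyme levels was not tested.

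The promoters of 3 mu class genes and of Gstp3 are shown because 6 of the 7 neighbouring mu genes were called and Gstm5 was not, and because Gstp3 moved the other way. Each is the 250 bases before a transcription start in RefSeq on the build GRCm38.p6, 5′ to 3′ on the strand of the gene. They lie at chr3:107931818-107932067 (minus strand), chr3:108017974-108018223 (minus strand), chr3:107895604-107895853 (plus strand) and chr19:4059448-4059697 (minus strand). For Gstm7 and Gstp3 the annotated gene reaches beyond the start used, to 107931877 and 4059605, so that part of the window lies inside the gene. Capitals mark the antioxidant response element core TGACNNNGC, bound by Nfe2l2, and the xenobiotic response element core GCGTG, bound by Ahr, on either strand. Gstm7 and Gstm1 fell, Gstm5 did not pass the test and Gstp3 rose.

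Gstm7: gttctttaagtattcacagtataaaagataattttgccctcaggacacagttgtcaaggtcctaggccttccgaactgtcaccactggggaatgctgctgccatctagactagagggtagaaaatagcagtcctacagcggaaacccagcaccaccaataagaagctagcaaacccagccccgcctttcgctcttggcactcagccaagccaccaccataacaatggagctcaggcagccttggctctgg
Gstm1: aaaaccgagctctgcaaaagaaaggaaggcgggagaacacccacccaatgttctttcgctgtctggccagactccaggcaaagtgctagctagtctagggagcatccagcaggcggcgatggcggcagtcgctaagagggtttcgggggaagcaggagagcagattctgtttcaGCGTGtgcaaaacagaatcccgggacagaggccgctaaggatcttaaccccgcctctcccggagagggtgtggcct
Gstm5: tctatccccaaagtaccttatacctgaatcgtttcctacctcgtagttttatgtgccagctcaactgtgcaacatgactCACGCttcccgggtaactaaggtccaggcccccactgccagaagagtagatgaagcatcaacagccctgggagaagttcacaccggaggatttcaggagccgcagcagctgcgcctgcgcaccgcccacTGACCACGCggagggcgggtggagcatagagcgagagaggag
Gstp3: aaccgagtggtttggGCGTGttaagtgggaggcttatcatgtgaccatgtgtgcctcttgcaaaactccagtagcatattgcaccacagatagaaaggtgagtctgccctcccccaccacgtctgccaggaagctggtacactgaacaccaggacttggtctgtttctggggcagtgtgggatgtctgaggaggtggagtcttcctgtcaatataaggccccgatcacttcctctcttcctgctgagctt

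Of the 48 members, 44 had a promoter in the table. The antioxidant core was found in 3 of them (6.82%), in Gsta3, Gstm5 and Mgst1, against 10.1% of 27025 genes, and none of these 3 was called after DSS. The xenobiotic core was found in 6 (13.6%), in Gstm1, Gstm5, Gstp1, Gstp3, Mgst3 and Sult1d1, against 28.3% of all genes. Among the 7 mu genes, all of which had a promoter in the table, the 6 that fell held no antioxidant core, and Gstm1 alone of them held a xenobiotic core, 76 bases before its start. Gstm5 held 1 antioxidant core, 42 bases before its start, and 2 xenobiotic cores, the nearer of which overlaps the antioxidant core. The site CAAAGTCC of the gut and liver factor HNF4, searched on both strands, was found in no member promoter, against 1.21% of all genes. At so low a share, 44 promoters are too few for the lack of a match to be read as a result. These are matches of letters in a window and were not tested as binding sites. The annotated gene reaches into the window of some other members too, Gstm4 and Gstm6 among them.

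Among the glucuronosyltransferases, the 3 members that fell were all of the Ugt2b cluster. That cluster holds 7 of the 10 members of the class, and all 5 with a mean level above 6.04 log2. Ugt2b35 had levels of 6.08, 6.49 and 6.87 log2 (lowest, median and highest) on the 8 DSS arrays, against 6.41, 7.16 and 7.72 on the 8 untreated arrays. The groups overlapped, since 6 DSS arrays lay above the lowest untreated array and 2 untreated arrays lay below the highest DSS array. The difference was -0.66 ± 0.12, with a limma adjusted p of 0.00334. Ugt2b34 had levels of 11.73, 11.79 and 12.02 on DSS arrays, against 11.97, 12.10 and 12.26 on untreated arrays. All but 1 DSS array lay below every untreated array, the exception being a pool of mice with neither SIgA source. Ugt2b34 fell by 0.28 ± 0.06 (limma adjusted p = 0.00588) and its standard error was the smaller of the 2.

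Ugt2b36 had levels of 5.98, 6.40 and 6.59 log2 on DSS arrays, against 6.35, 6.62 and 7.03 on untreated arrays. It fell by 0.35 ± 0.09 (limma adjusted p = 0.0268), and 5 DSS arrays lay above the lowest untreated array. This call was lost when any of 7 arrays was left out, at adjusted p of up to 0.0694. The 3 genes belong to a run of 8 neighbouring Ugt2 genes on chromosome 5. Of the other 5, Ugt2b1, Ugt2b5, Ugt2b37, Ugt2a3 and Ugt2b38, none passed the test. The Ugt2 enzymes glucuronidate steroids, bile acids and many drugs.

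Ugt3a1, whose enzyme uses other UDP-sugars, came nearest to a call among the rest of the class (-0.36 ± 0.11, limma adjusted p = 0.0557). Its levels were 3.92, 3.98 and 4.16 log2 on DSS arrays, against 3.79, 3.95 and 5.46 on untreated arrays. The medians of the groups thus lay close together, and the 3 highest untreated values, 5.46, 5.22 and 4.83, came from the 3 arrays that stood apart. Without those arrays the difference was 0.13 ± 0.08. Ugt2a3 followed the same course, at -0.22 ± 0.09 with all arrays (limma adjusted p = 0.127) and 0.05 ± 0.08 without the 3.

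**Figure D2:**
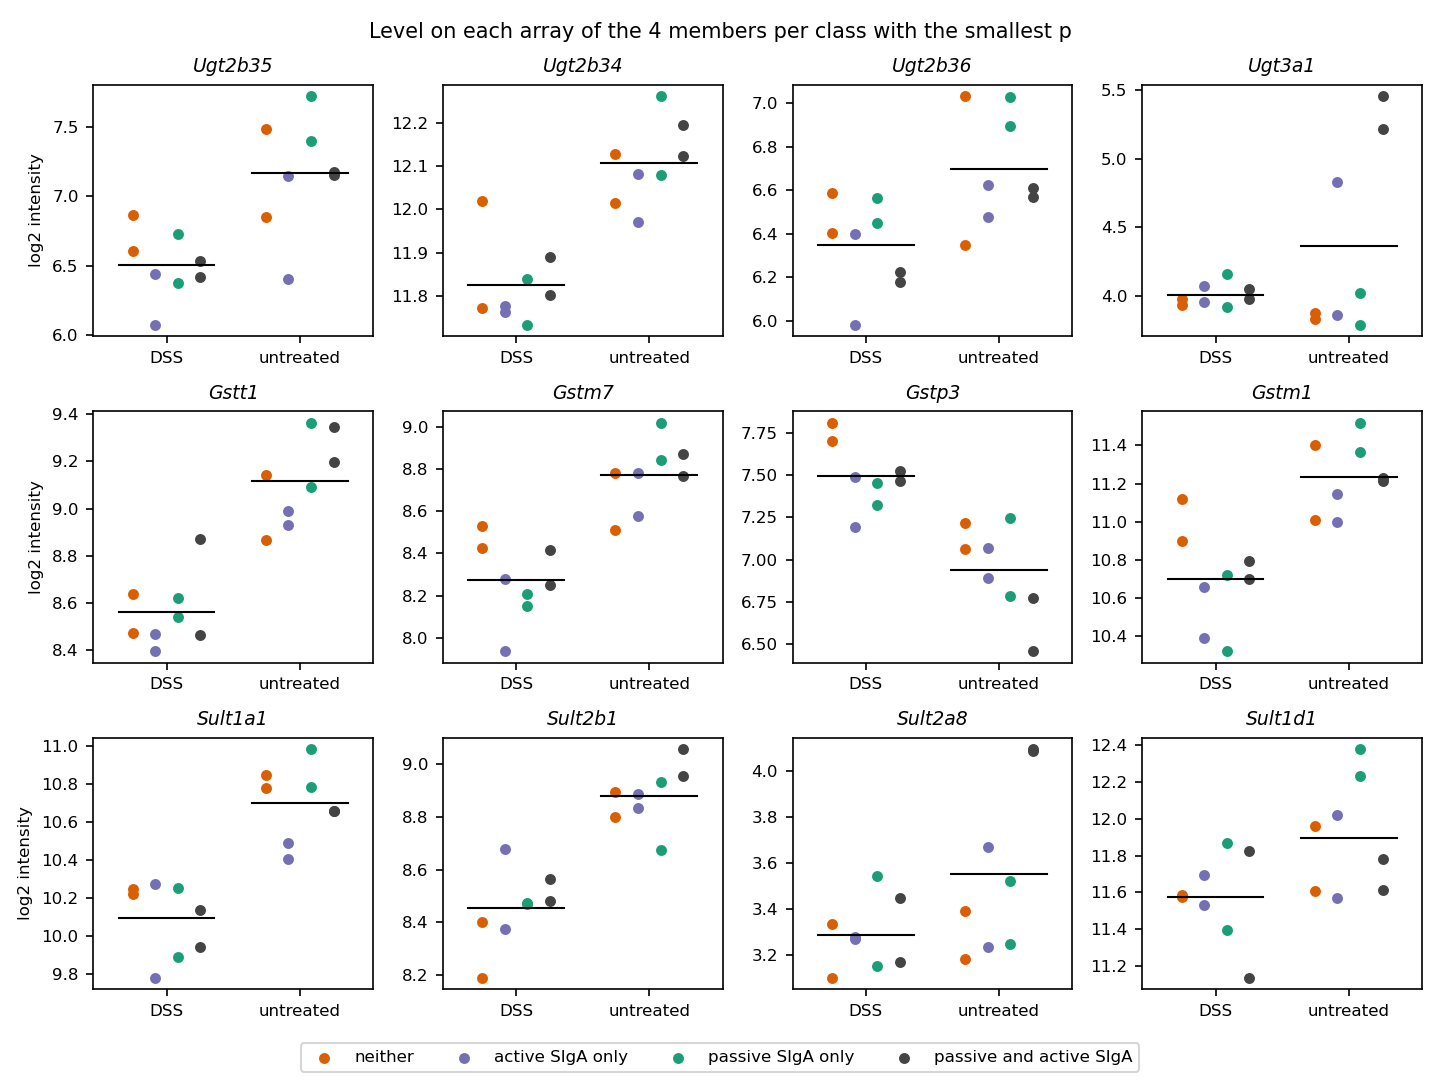
The plot gives log2 intensity on each array for the 4 members of each class with the smallest p, with DSS arrays left of untreated arrays, colours for the SIgA groups and lines at treatment means. Sult1a1 shows no overlap between treatments, and for Ugt3a1 the 3 untreated arrays that stood apart lie above all others.

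Within the glutathione transferases most of the members that fell were of the mu class, which conjugates many aromatic and epoxide electrophiles. Of 7 mu genes, 6 fell, and the 15 members of the other glutathione transferase families held 1 that fell, Gstt1, and the 2 that rose. Without the 3 arrays that stood apart, Gstm1 and Gstm7 were the mu genes still called, and Gstm2, Gstm3, Gstm4 and Gstm6 were at -0.34, -0.41, -0.28 and -0.49. Gstm1 had levels of 10.32, 10.71 and 11.12 log2 on DSS arrays, against 11.00, 11.22 and 11.52 on untreated arrays. All but 1 DSS array, from mice with neither SIgA source, lay below every untreated array, and the difference was -0.54 ± 0.08 (limma adjusted p = 0.00072). Gstm7 had levels of 7.94, 8.26 and 8.53 on DSS arrays, against 8.51, 8.78 and 9.02 on untreated arrays. It fell by 0.50 ± 0.07 (limma adjusted p = 0.00044), with an overlap of 1 DSS and 1 untreated array, both from mice with neither SIgA source.

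The remaining mu genes that fell were Gstm6 (-0.48 ± 0.11), Gstm3 (-0.46 ± 0.09), Gstm4 (-0.31 ± 0.08) and Gstm2 (-0.30 ± 0.09), with limma adjusted p of 0.0111, 0.00429, 0.0211 and 0.0364. Gstm3 was the 1 member with 2 probe sets, and the second gave -0.51. The call on Gstm2 was lost when any of 10 arrays was left out (adjusted p of up to 0.0937), and that on Gstm4 when any of 4 was (up to 0.0581). Gstm5 had levels of 8.90, 9.12 and 9.50 log2 on DSS arrays, against 8.87, 9.15 and 9.43 on untreated arrays, which is nearly the same range on both sides. Its difference was -0.00 ± 0.07, with a 95% interval of -0.15 to 0.15, and whether it differs from its neighbours was not tested. All 7 genes are consecutive protein-coding genes on chromosome 3, in the order Gstm5, Gstm7, Gstm6, Gstm3, Gstm2, Gstm1 and Gstm4, and Gstm5 is transcribed from the opposite strand to the other 6. The mu genes are close relatives, so probes for one may also read another, and how far each probe set does so was not tested.

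**Figure D3:**
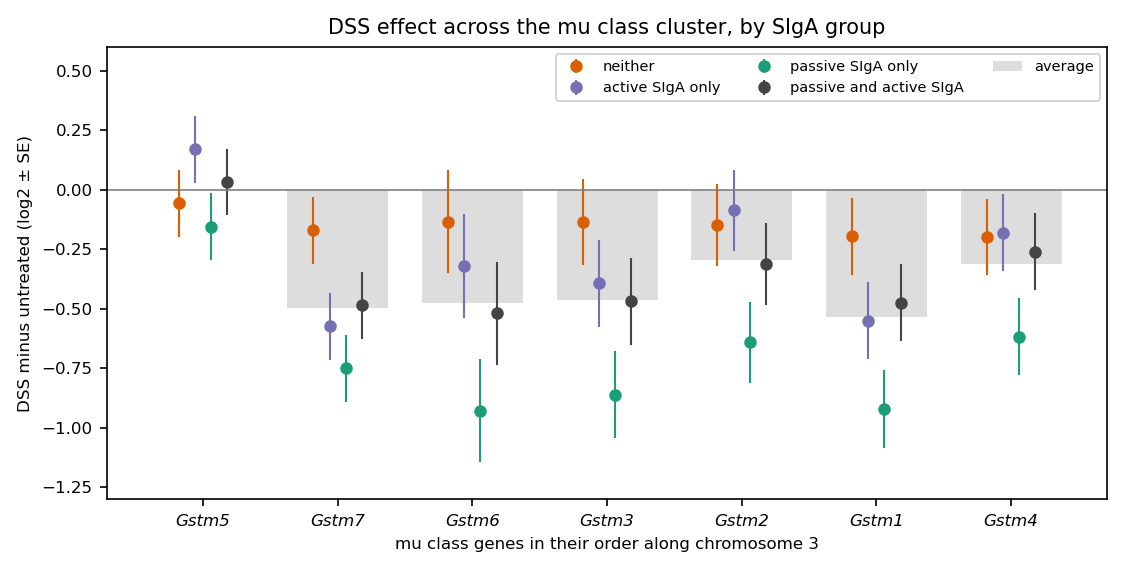
The plot gives the DSS effect in log2 units, DSS minus untreated, on each mu class gene in its order along chromosome 3, with points for the 4 SIgA groups, bars of 1 standard error and grey columns for the average. The 6 genes after Gstm5 have averages between -0.54 and -0.30, and the points of mice with passive SIgA only are the lowest for each of them.

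Gstt1, a theta class enzyme that acts on small halogenated compounds, fell by 0.56 ± 0.08 (limma adjusted p = 0.000286). Its levels were 8.40, 8.51 and 8.87 log2 on DSS arrays, against 8.87, 9.12 and 9.36 on untreated arrays, so that a single DSS array, from mice with both SIgA sources, reached the lowest untreated one. Of its 3 theta neighbours on chromosome 10, Gstt3 was at -0.16 ± 0.07 (limma adjusted p = 0.145), and neither Gstt2 nor Gstt4 passed the test. Mgst3, a membrane-bound enzyme of the microsomal family, was at -0.17 ± 0.06 (limma adjusted p = 0.0736).

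Gstp3, of the pi class, rose by 0.56 ± 0.08 (limma adjusted p = 0.000536). Its levels were 7.19, 7.48 and 7.81 log2 on DSS arrays, against 6.46, 6.98 and 7.25 on untreated arrays. A single DSS array lay below the highest untreated array, and the highest levels were in DSS-treated mice with neither SIgA source. The other pi class member measured, Gstp1, was at -0.12 ± 0.08 (limma adjusted p = 0.42), and was named after its value was seen. Gstk1, the kappa class enzyme of mitochondria and peroxisomes, rose by 0.20 ± 0.05 (limma adjusted p = 0.028), with levels of 11.21, 11.34 and 11.59 on DSS arrays, against 10.97, 11.08 and 11.45 on untreated arrays. This call was lost when any of 10 arrays was left out, at adjusted p of up to 0.0744. The alpha, omega and zeta members and all 3 microsomal members were not called, and the differences of the 13 glutathione transferases not called ran between -0.17 and 0.18.

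Sult1a1, the main phenol sulfotransferase, was the only member whose treatments did not overlap on any array. Its levels were 9.78, 10.18 and 10.27 log2 on DSS arrays, against 10.40, 10.72 and 10.98 on untreated arrays. Each of the 8 DSS arrays lay below each of the 8 untreated arrays, which 1.3% of all genes did. In the other direction, 1.58% of all genes had every DSS array above every untreated array, and no member did. With such shares over all genes, 1 of 48 members is not read as a result about the members. The difference was -0.61 ± 0.08, a linear ratio of 0.656 (limma adjusted p = 0.000236). By SIgA group the 2 pools were at 10.25 and 10.22 on DSS and 10.78 and 10.85 untreated with neither, and at 10.27 and 9.78 on DSS and 10.40 and 10.49 untreated with active SIgA only. They were at 9.89 and 10.25 on DSS and 10.79 and 10.98 untreated with passive SIgA only, and at 9.94 and 10.14 on DSS and 10.66 and 10.66 untreated with both.

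Sult2b1, which sulfates cholesterol and pregnenolone, fell by 0.43 ± 0.06 (limma adjusted p = 0.000719). Its levels were 8.19, 8.47 and 8.68 log2 on DSS arrays, against 8.67, 8.89 and 9.06 on untreated arrays, with an overlap of 1 array on each side. Sult1d1, which sulfates catecholamines, had levels of 11.14, 11.58 and 11.87 on DSS arrays, against 11.57, 11.87 and 12.38 on untreated arrays. It was at -0.32 ± 0.11 and did not pass the test (limma adjusted p = 0.0819). Sult2a8, of the bile acid and hydroxysteroid sulfotransferases, was dim, with levels of 3.10, 3.27 and 3.54 on DSS arrays against 3.18, 3.46 and 4.09 on untreated arrays. Its difference of -0.27 ± 0.09 (limma adjusted p = 0.0638) became -0.02 ± 0.10 without the 3 arrays that stood apart. The 14 sulfotransferases not called had differences between -0.32 and 0.10, and their 95% intervals reached from -0.56 to 0.27. Only 6 of the 16 sulfotransferases were above the dimmest 30% of genes, against 21 of the 22 glutathione transferases and 5 of the 10 glucuronosyltransferases.

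Genes that supply and remove the substrates of these enzymes were taken from lists that hold no member. Of 14 genes of glutathione supply, 4 rose and 4 fell. Slc7a11, the cystine importer, had levels of 7.98, 8.48 and 8.70 log2 on DSS arrays, against 6.24, 6.67 and 8.06 on untreated arrays, and rose by 1.63 ± 0.15 (limma adjusted p = 1.327e-05). Lap3, a peptidase, rose by 0.50 ± 0.07 and Dpep1, a dipeptidase that splits cysteinylglycine, fell by 0.56 ± 0.06 (limma adjusted p = 0.000587 and 5.116e-05). For the glucuronic acid donor, 2 of 7 genes rose and 1 fell. Ugdh, which makes UDP-glucuronic acid, had levels of 11.87, 12.15 and 12.29 on DSS arrays, against 12.36, 12.50 and 12.71 on untreated arrays, and fell by 0.38 ± 0.05. Gusb, the lysosomal glucuronidase, rose by 0.40 ± 0.06, and Slc35b1, a nucleotide transporter of the endoplasmic reticulum, by 0.39 ± 0.05 (limma adjusted p for the 3 genes 0.000343, 0.000641 and 0.000242).

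For the sulfate donor, 1 of 13 genes rose and 3 fell. Papss1, which makes PAPS, had levels of 8.59, 8.88 and 8.97 log2 on DSS arrays, against 9.10, 9.32 and 9.40 on untreated arrays, and fell by 0.44 ± 0.06 (limma adjusted p = 0.00049). Papss2, which also makes PAPS, was at -0.01 ± 0.07 (limma adjusted p = 0.951), and was named after its value was seen. The anion exchanger genes Slc26a3, also an absorptive colonocyte marker, and Slc26a2, the sulfate transporter, fell by 0.47 ± 0.08 and 0.29 ± 0.07 (limma adjusted p = 0.00165 and 0.0112). Of 9 exporters, 4 fell and none rose. Abcb1a was at -0.30 ± 0.06, Abcc3 at -0.25 ± 0.06 and Abcc1 at -0.23 ± 0.06 (limma adjusted p = 0.00634, 0.0138 and 0.0139), the last a transporter of glutathione and glucuronide conjugates. Without the untreated group with both SIgA sources, the genes called numbered 2 higher and 2 lower for glutathione supply, 2 and 1 for the glucuronic acid donor, 0 and 2 for the sulfate donor, and 0 and 1 for export.

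Targets of Nfe2l2 outside the transferases were mixed: 5 of 19 rose and 2 fell. Gpx2, the epithelial glutathione peroxidase, had levels of 12.52, 12.69 and 12.85 log2 on DSS arrays, against 11.79, 12.10 and 12.14 on untreated arrays, and rose by 0.65 ± 0.06. Me1 rose by 0.52 ± 0.06 and Txnrd1, thioredoxin reductase, by 0.36 ± 0.05 (limma adjusted p for the 3 genes 1.872e-05, 7.793e-05 and 0.000487). None of 7 Ahr targets was called at this threshold in limma, and none had an unadjusted p under 0.05. Cyp1a1, Cyp1a2, Cyp1b1, Ahrr and Aldh3a1 were dim, with medians below 6.04 log2 on both DSS and untreated arrays. Their low levels limit what small changes could show, and only Nqo1 and Tiparp had medians above 6.04. Nqo1, which is on both lists, was at -0.18 ± 0.09, Tiparp at 0.09 ± 0.09 and Cyp1a1 at -0.08 ± 0.08 (limma adjusted p = 0.207, 0.56 and 0.586).

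Among 20 regulators, 1 rose and 3 fell. Ppargc1a, a coactivator of oxidative metabolism, fell by 0.59 ± 0.07, and Vdr, the vitamin D receptor, by 0.40 ± 0.06. Nr1h4, the bile acid receptor FXR, rose by 0.55 ± 0.10 (limma adjusted p for the 3 genes 0.000143, 0.000387 and 0.00261). Nfe2l2 itself, named after its value was seen, was at -0.03 ± 0.05 (limma adjusted p = 0.763). Of 19 genes on a list of other conjugating enzymes and related proteins, not all of which conjugate, 3 rose and 3 fell. Tst, a mitochondrial sulfurtransferase, fell by 0.41 ± 0.07, and Ptges and Alox5ap, which serve prostaglandin and leukotriene synthesis, rose by 0.32 ± 0.06 and 0.44 ± 0.11 (limma adjusted p = 0.00266, 0.00409 and 0.0171). Without the untreated group with both SIgA sources, 4 Nfe2l2 targets rose and 1 fell, no Ahr target was called, and 1 regulator rose and 2 fell. No gene on the list of other conjugating enzymes and related proteins was then called.

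**Figure D4:**
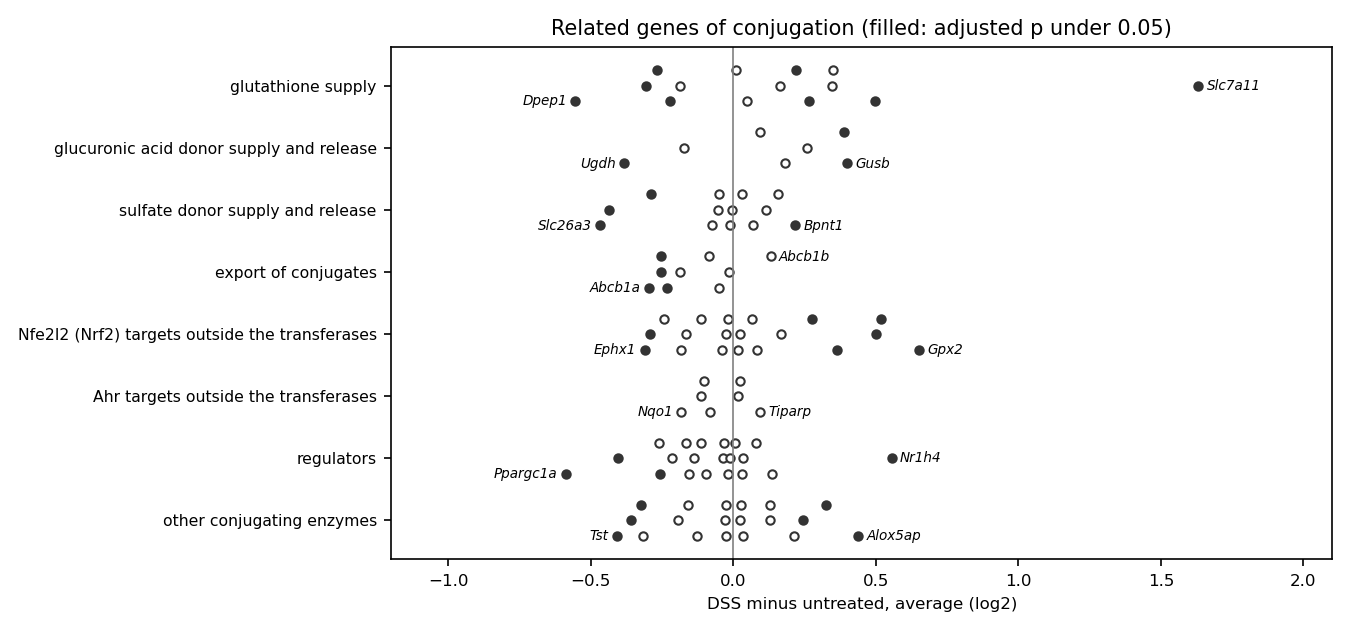
The plot gives the average DSS effect in log2 units, DSS minus untreated, on the genes of 8 lists related to conjugation, with filled points at a limma adjusted p under 0.05 and the outermost genes of each list named. Slc7a11 lies farthest right at 1.63, and the called genes of the export list all lie left of zero.

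Within single SIgA groups, 2 pools were set against 2, and the 4 contrasts called very different numbers of genes. In mice with neither SIgA source no member was called, beside 1.12% of all genes, and the smallest p-values were those of Sult2b1 (-0.55 ± 0.13, limma adjusted p = 0.0665), Gstp3 (0.62 ± 0.16, 0.11) and Sult1a1 (-0.58 ± 0.16, 0.132). In mice with active SIgA only none was called, beside 0.998%, and Gstm7 (-0.57 ± 0.14), Gstt1 (-0.53 ± 0.15) and Gstm1 (-0.55 ± 0.16) came first, with limma adjusted p of 0.0845, 0.142 and 0.158. Over the members, 5 and 10 of 48 had an unadjusted limma p under 0.05 in these groups. The share of all genes under that limit is not given here, so these counts are not read as a result about the members.

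In mice with passive SIgA only, 6 members fell, beside 1.08% of all genes called as lower. They were Gstm6 (-0.93 ± 0.22), Gstm1 (-0.92 ± 0.16), Gstm3 (-0.86 ± 0.18), Sult1a1 (-0.81 ± 0.16), Gstm7 (-0.75 ± 0.14) and Gstt1 (-0.65 ± 0.15), with limma adjusted p between 0.00976 and 0.0463. No call among the 6 held when each array was left out in turn. None of the 6 was called without replicate 1 or replicate 2 of the untreated pools of this group, or without replicate 1 of its DSS pools, while without replicate 2 of its DSS pools Gstm1, Gstm3 and Sult1a1 were still called. In mice with both SIgA sources, 8 members fell and Gstp3 rose (0.88 ± 0.16, limma adjusted p = 0.00394), beside 6.53% of all genes called as lower and 3.56% as higher.

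Of the 9 members called in mice with both SIgA sources, Ugt3a1 (-1.32 ± 0.23), Sult2a8 (-0.78 ± 0.18), Ugt2a3 (-0.71 ± 0.17) and Ugt2b37 (-0.62 ± 0.14) were among the dimmest 30% of genes. The others that fell were Sult1a1 (-0.62 ± 0.16), Gstt1 (-0.60 ± 0.15), Gstm7 (-0.49 ± 0.14) and Sult2b1 (-0.49 ± 0.13). The 8 limma adjusted p lay between 0.0023 and 0.0457. This contrast rests on the untreated arrays that stood apart and cannot be made without them. Without replicate 2 of those arrays, 2 members were called, Ugt3a1 and Ugt3a2, and without replicate 1, 4 were, of which 3 were among the 9. Leaving out replicate 1 of the DSS pools left 5 members called and leaving out replicate 2 left 4.

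SIgA comparisons in untreated mice called few members. Without passive SIgA, compared with mice that had it, Gstt3 was lower, at -0.38 ± 0.09 (limma adjusted p = 0.0479), 1 of 48 members beside 1.8% of all genes lower. The 4 pools without passive SIgA were at 9.28, 9.50, 9.55 and 9.44 log2 and the 4 with it at 9.73, 9.73, 9.89 and 9.96, with no overlap. The call was lost when any of 12 arrays was left out, at adjusted p of up to 0.191. Without the untreated group with both SIgA sources, which leaves 2 pools against 2 of Pigr-/- mice, Gstt3 was at -0.34 ± 0.14 and neither it nor any other gene was called (0%).

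Without active SIgA, compared with mice that had it, 3 dim members were lower in untreated colon, beside 5.92% of all genes lower. They were Ugt3a1 (-0.96 ± 0.16), Ugt2a3 (-0.58 ± 0.12) and Ugt3a2 (-0.53 ± 0.14), with limma adjusted p of 0.00363, 0.0145 and 0.0347. Ugt3a1 was at 3.88, 3.84, 3.79 and 4.02 log2 in the 4 pools without active SIgA, against 4.83, 3.86, 5.22 and 5.46 in the 4 with it. The 3 high pools were the arrays that stood apart, and the other pool with active SIgA lay within the range of the pools without it. For Ugt3a1, Ugt2a3, Ugt3a2 and Sult2a8, all dim, each of the 3 arrays that stood apart lay above all of the other 13, and no other member showed this. The mean of the genes that colon is not known to use was highest on the same 3 arrays. Without the untreated group with both SIgA sources, which leaves 2 pools against 2 without passive SIgA, Ugt3a1 was at -0.49 ± 0.23 and no member and no gene (0%) was called in this comparison, and with all arrays but without the dimmest 30% of genes, 19 of 13956 (0.136%) were, none of them a member. With all genes, the call on Ugt3a1 held when any 1 array was left out, that on Ugt2a3 was lost without any of 3 arrays and that on Ugt3a2 without any of 5. Without replicate 2 of the untreated pools with passive SIgA only, or of those with neither source, 1 member was called, and without replicate 2 of those with active SIgA only 7 were.

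**Figure D5:**
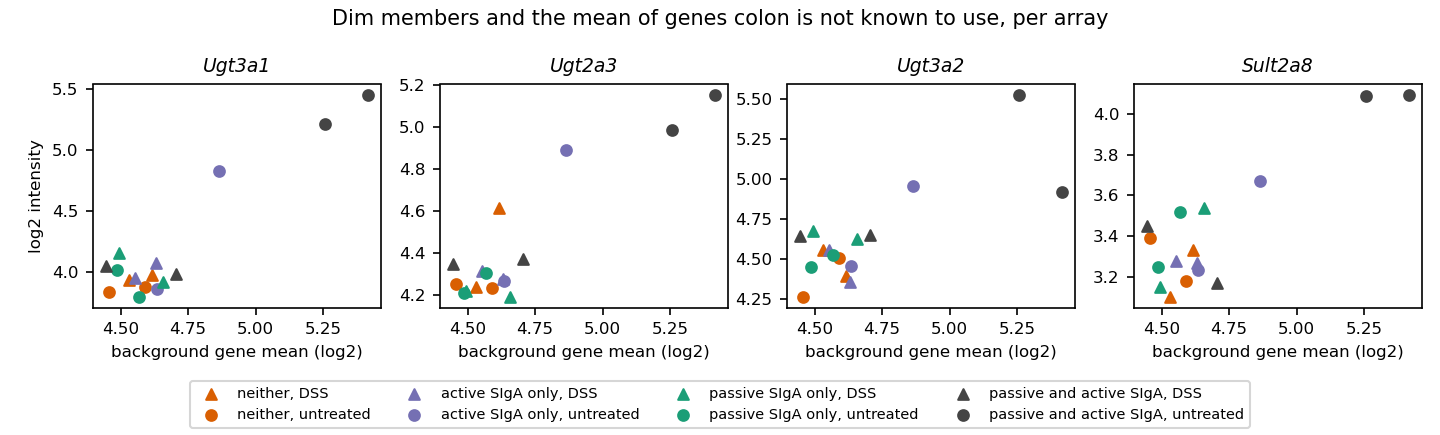
The plot sets log2 intensity of 4 dim members against the mean level, in log2 units, of 1238 olfactory receptor, vomeronasal receptor and keratin-associated genes on the same array, with triangles for DSS and circles for untreated. The 3 untreated arrays with the highest background mean, 4.87, 5.26 and 5.42, are the highest for each of the 4 genes.

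After DSS, no member differed with passive or with active SIgA in limma. For passive SIgA no gene at all was called (0%), and 788 genes had an unadjusted p under 0.05. The members with the smallest p were Gstk1 (-0.23 ± 0.08), Gstm5 (0.25 ± 0.10) and Gsta4, which acts on 4-hydroxynonenal (-0.30 ± 0.14), at limma adjusted p of 0.967 or more. For active SIgA 0.00502% of genes were called, which was Pigr alone, and 330 had an unadjusted p under 0.05. Ugt2b36 (0.31 ± 0.13), Ugt2b37 (0.23 ± 0.10) and Gsta4 (0.29 ± 0.14) came first among members.

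The interaction tests asked whether SIgA altered the DSS effect. For passive SIgA no member was called, beside 0.115% of all genes, and Ugt2b37 (0.36 ± 0.14), Gstt3 (0.33 ± 0.13) and Gstm6 (0.50 ± 0.22) had the smallest p (limma adjusted p = 0.515, 0.531 and 0.589). For active SIgA no member was called, beside 0.843% of all genes. Ugt3a1 (0.94 ± 0.23), Ugt2b37 (0.47 ± 0.14) and Ugt2a3 (0.56 ± 0.17) came first, all dim genes (limma adjusted p = 0.0804, 0.179 and 0.187). Without the 3 arrays that stood apart, the interaction can be taken in mice without passive SIgA alone, with 1 untreated pool that had active SIgA, and Ugt3a1 was there at -0.049 ± 0.19. Each interaction with all arrays is averaged over the other source of SIgA, and no test set mice with passive SIgA only against the other groups.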

How the data were processed

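Colonic epithelial RNA was measured on 16 Affymetrix whole-transcript arrays, 2 pools of 3 mice in each of 8 groups. The deposited values are log2 intensities made by the authors with RMA, per the submitters' processing notes. The sources used here do not give its version, and raw intensities were not analysed here. They needed no further scaling. Of 35557 probe sets, 21789 named 1 gene, 1621 several and 12147 none in the platform annotation, and the first kind alone was used. For 999 genes with several probe sets the brightest, by mean, stood for the gene. All 48 members were found by gene identifier in the RefSeq table of GRCm38, which served for names and gene order.

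With 1 mean per group, 19938 genes were fitted in limma 3.58.1 in R 4.3.3 (8 residual and 5.03 prior degrees of freedom), two-sided, with Benjamini-Hochberg adjustment over all genes. Differences are DSS minus untreated, or without minus with for SIgA. The few arrays limit precision.

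The members and lists were chosen with earlier results of these data known, and the leave-out sets too. Named were every member called in a comparison, or the 3 with the smallest p where none was, and for the DSS average 2 more per class, Pigr, and up to 3 genes of each related list. Further genes were named for their level, or after their values were seen. Levels on all arrays are given for up to 4 members per class. The lists were glutathione, glucuronic acid and sulfate donor supply, export, Nfe2l2 targets, Ahr targets, regulators, other conjugating enzymes with related proteins, and markers of 13 cell types. No goblet, tuft, enteroendocrine, fibroblast, endothelial, smooth muscle, T or B cell list entered a comparison; they gave 1 higher and 2 lower of 8, 0 and 0 of 6, 0 and 0 of 8, 3 and 0 of 10, 0 and 0 of 6, 0 and 0 of 6, 0 and 0 of 9, and 0 and 2 of 9 after DSS.

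Alternatives were an adjusted p under 0.1, a fold change of at least 1.5, a trended prior, no moderation, array weights, a replicate block, median centring, quantile normalization, the mean of probe sets, leaving out the dimmest 30% of genes, the group and the 3 arrays that stood apart, and each array in turn.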

Additional observations from a re-analysis of the deposited data

Results flagged for a closer look

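A set of 3 Ugt genes was picked out because, in a pair of SIgA groups, both DSS pools lay on one side of both untreated pools in one group and on the other side in the second. The DSS effect on Ugt3a1 was 0.10 log2 in mice with neither SIgA source and -1.32 in mice with both, a difference of 1.42. For Ugt2b37 the effects in the same groups were 0.22 and -0.62, a difference of 0.84. For Ugt3a2 the effect was 0.16 in mice with passive SIgA only and -0.58 in mice with both, a difference of 0.74. These differences between single groups were not tested. All 3 genes are among the dimmest 30%, and each pair includes the untreated group whose arrays stood apart. The groups hold 2 arrays each, so no array could be tested as an outlier within its group.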

How the results depend on the processing

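Of the 48 members, the DSS average gave 2 higher and 12 lower. The number higher was 0 at a fold change of at least 1.5, 1 with arrays centred and 1 without the 3 arrays that stood apart; the number lower was 2 and 7 at that fold and without those arrays. The medians of the glucuronosyl, glutathione and sulfotransferases were -0.063, -0.053 and -0.030 without the 3 arrays, the first was -0.095 without the group, and the last -0.29 without the dimmest genes. In mice with both SIgA sources, the 8 lower became 3 without moderation, 5 with array weights and 3 without the dimmest genes; with passive SIgA only, 6 became 1 without moderation. With active SIgA only, none became 1 at an adjusted p under 0.1, with a trended prior and with quantile normalization. With neither source, 1 was higher with array weights, and the lower numbered 1 at an adjusted p under 0.1, 1 with a trended prior, 2 with array weights and 1 without the dimmest genes. For passive SIgA in untreated mice, the 1 lower became 3, 2, 3 and 2 at an adjusted p under 0.1, with a trended prior, centring and quantile normalization, and 0 at the fold limit, without moderation, with array weights, and without the dimmest genes, the group or the 3 arrays. For active SIgA in untreated mice, 2 were higher at an adjusted p under 0.1; the 3 lower became 5 at that threshold, 1 at the fold limit, without moderation and with quantile normalization, and 0 without the dimmest genes, the group or the 3 arrays. In its interaction with DSS, 1 was higher at an adjusted p under 0.1, with array weights and with centring. Without the 3 arrays, Ugt3a1 turned to 0.13 and Ugt2a3 to 0.053 in the DSS average, and Ugt3a1 to -0.049 in the active SIgA interaction, then taken in mice without passive SIgA alone. The cause of these shifts was not tested, other than that fewer genes or arrays entered some fits. The remaining settings left these counts within 1.5 times.

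The labels do not say whether pools of the same replicate number were paired, and the correlations do not settle it. Of 28 correlations between groups of the deviations of replicate 1, 14 were over 0.1, and they ran from -0.301 to 0.666. With the replicate block, 1 higher and 5 lower members were called for active SIgA in untreated mice, and no other count moved by over 1.5 times. Leaving out 1 array at a time gave 1 to 2 higher and 9 to 16 lower for the DSS average, 0 to 1 and 2 to 10 with both SIgA sources, 0 to 7 lower with passive only, 0 to 2 lower with active only, 0 to 1 higher and 0 to 2 lower for passive SIgA untreated, 0 to 2 higher and 1 to 5 lower for active SIgA untreated, and 0 to 2 higher for its interaction. The class medians ran from -0.24 to -0.16 (glucuronosyltransferases), -0.14 to -0.07 (glutathione transferases) and -0.12 to -0.08 (sulfotransferases). Over all genes, centring changed the split to 317 higher and 2056 lower with both SIgA sources (709 and 1302 as deposited), 134 and 44 with active only (124 and 75), and 80 and 869 for passive SIgA untreated (155 and 359). Members near background, 16 of 48, bound what small changes could show.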
